A study of Homo sapiens with 14 samples.

Results

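The clustered protocadherin genes lie side by side on human chromosome 5 in the alpha, beta and gamma clusters, and this account describes the open chromatin regions found there. The members were all regions of the deposited count table that start between 140.77 and 141.53 Mb of chromosome 5 (hg38). There were 20 such regions among 65774 in the whole table, and they were 191 to 1077 bp wide. The measurements are ATAC-seq counts: the Tn5 transposase cuts and tags DNA where chromatin is accessible, so a higher count in a region means more accessible DNA there. The cells were SUM149PT, an established human breast cancer line that the labels describe as lacking oestrogen and progesterone receptors, without treatment. They formed 7 groups of 2 libraries each: Parental, the E clone, the EM clones (EM1, EM2 and EM3) and the M clones (M1 and M2). Each clone name stands for 1 clone, so what is particular to a clone and what belongs to an E, EM or M state cannot be told apart. Nothing in the labels tells whether both libraries of a group came from separate cultures, and the p-values then measure only the spread between libraries, which may be technical.

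Clustered protocadherins are cell surface adhesion proteins best known from neurons, where each cell uses a small set of them and so carries its own surface identity. Each alpha and gamma variable exon has its own promoter and is spliced to constant exons shared by its cluster, while the beta genes have no shared constant exons. In neurons most promoters are chosen at random, the C-type promoters (PCDHAC1, PCDHAC2, PCDHGC3, PCDHGC4 and PCDHGC5) are used more uniformly, and the insulator protein CTCF with cohesin brings chosen promoters to distal enhancers. Many of these promoters share a conserved sequence element with the core letters CGCT.

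Of the 20 regions, 11 lay within 1 kb of the start of a clustered protocadherin gene, and each of these spanned that start. Another 3 lay inside the clusters away from any start, 2 lay between genes, and 4 lay in genes of other families, TAF7 (a subunit of the general transcription factor TFIID) and DIAPH1 (a formin that assembles actin filaments). Among the 53 protein-coding genes of the clusters, 3 of 15 alpha, 4 of 16 beta and 4 of 22 gamma genes had a region at their start. The other 42 starts had no region of the table and no peak within 1 kb in any of the authors' 7 deposited peak lists. The 191 peaks of those lists in this span all fell on the 20 regions. How the regions of the table were made is not stated, so the lists may not be a separate check of the 42 starts.

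The stretch around the CGCT element at each of the 11 starts with an accessible region is shown because these are the promoters on which the results turn. The sequences are RefSeq's, GRCh38.p14, plus strand of chromosome 5, with the matching element in capitals, or 2 overlapping elements joined at PCDHB3 and PCDHGB2.

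PCDHA4 (chr5:140806953-140807018): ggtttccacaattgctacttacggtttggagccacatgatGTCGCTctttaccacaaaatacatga
PCDHA11 (chr5:140868857-140868922): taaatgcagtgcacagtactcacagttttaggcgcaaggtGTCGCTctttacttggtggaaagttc
PCDHAC1 (chr5:140926194-140926259): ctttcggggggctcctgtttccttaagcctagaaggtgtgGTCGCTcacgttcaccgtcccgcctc
PCDHB2 (chr5:141094517-141094583): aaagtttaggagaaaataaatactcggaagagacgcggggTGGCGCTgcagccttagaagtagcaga
PCDHB3 (chr5:141100366-141100434): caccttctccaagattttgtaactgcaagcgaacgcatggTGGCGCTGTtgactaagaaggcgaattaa
PCDHB9 (chr5:141187047-141187113): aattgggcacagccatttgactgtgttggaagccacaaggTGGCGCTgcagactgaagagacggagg
PCDHB14 (chr5:141223236-141223302): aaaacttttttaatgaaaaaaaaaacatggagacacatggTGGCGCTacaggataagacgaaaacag
PCDHGB2 (chr5:141359895-141359962): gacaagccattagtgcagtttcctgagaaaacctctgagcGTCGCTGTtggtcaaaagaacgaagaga
PCDHGB7 (chr5:141417583-141417646): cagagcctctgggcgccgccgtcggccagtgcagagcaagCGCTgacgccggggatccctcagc
PCDHGC3 (chr5:141475856-141475921): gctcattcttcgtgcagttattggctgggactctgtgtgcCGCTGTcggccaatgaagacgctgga
PCDHGC4 (chr5:141484928-141484993): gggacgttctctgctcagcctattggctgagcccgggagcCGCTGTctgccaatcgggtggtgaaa

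The element ended 51 to 70 bases before the gene start at all 11 starts and lay inside the accessible region at each. The letters searched, on both strands of the 250 bases before each gene start, were GTCGCT for the alpha genes, TGGCGCT for the beta genes, CGCTGT for the gamma genes, and the core CGCT that all of them contain. They were chosen after these sequences were seen. At PCDHGB7 none of the longer strings was found before the start on the gene's strand, so only the core CGCT is marked there. RefSeq's table held 47 of the 53 cluster genes. GTCGCT was present at 11 of 13 alpha genes against 6.32% of all 27305 promoters, TGGCGCT at 12 of 14 beta genes against 3.14%, and CGCTGT at 17 of 20 gamma genes against 8.9%. The core CGCT alone was on the gene's strand within the last 100 bases at 93.6% of cluster genes and 28.1% of all promoters. A match describes letters only. Starts with and without an accessible region both carry the element, so it does not separate them.

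Library totals were 8138944 to 16786823 counts, and the members held 1828 to 4195 of them per library. Values are CPM (library-size-scaled counts, after TMM scaling), each given for replicate 1 and then replicate 2. A region is called open in a group when both libraries reach 2 CPM, a descriptive limit. Log2 changes and adjusted p-values are from edgeR's quasi-likelihood test over all 65771 regions tested, with Benjamini-Hochberg adjustment. All 20 members passed the low-count filter. The PCDHA11 and PCDHB2 starts and the region before the alpha constant exons passed it only because of their M2 counts. Their rises in M2 were thus tested on regions kept through M2. With no filter on low counts, 2 members were called in E and 12 in M2, the same counts as with it. E replicate 1 carried signal at regions otherwise read only in M2. At 12 regions without a count in any library outside E and M2, it reached 21.1% of the M2 level, against 1.77% in E replicate 2, and the calls made in E are given below with and without it.

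In the Parental line 15 of the 20 regions were open, 7 of them at starts. The counts in the clones were 14 in E, 16 in EM1, 16 in EM2, 17 in EM3, 14 in M1 and 15 in M2, with 6, 8, 8, 9, 7 and 6 starts; without E replicate 1 the E count was 15. Over all regions of the table, 87.7% were open in Parental, 85.8% in E, 89.3% in EM1, 86.4% in EM2, 89.9% in EM3, 82.5% in M1 and 76% in M2. There were 9 regions open in all 7 groups and 3 open in M2 alone: the PCDHA11 start, the PCDHB2 start and the region before the alpha constant exons. Each of these 3 had a peak in 1 of the authors' 7 lists. Of the 9, the region in the body of TAF7 had a peak in 1 list, the one between PCDHB1 and PCDHB2 in 2, and the others in 5 to 7. Starts open in 5 or 6 groups had a peak in 1 list (PCDHGC4) to 6 lists (PCDHAC1). By the test of any difference among the 7 groups, 15 of the 20 regions were called, against 78.6% of all regions.

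**Figure D1:**
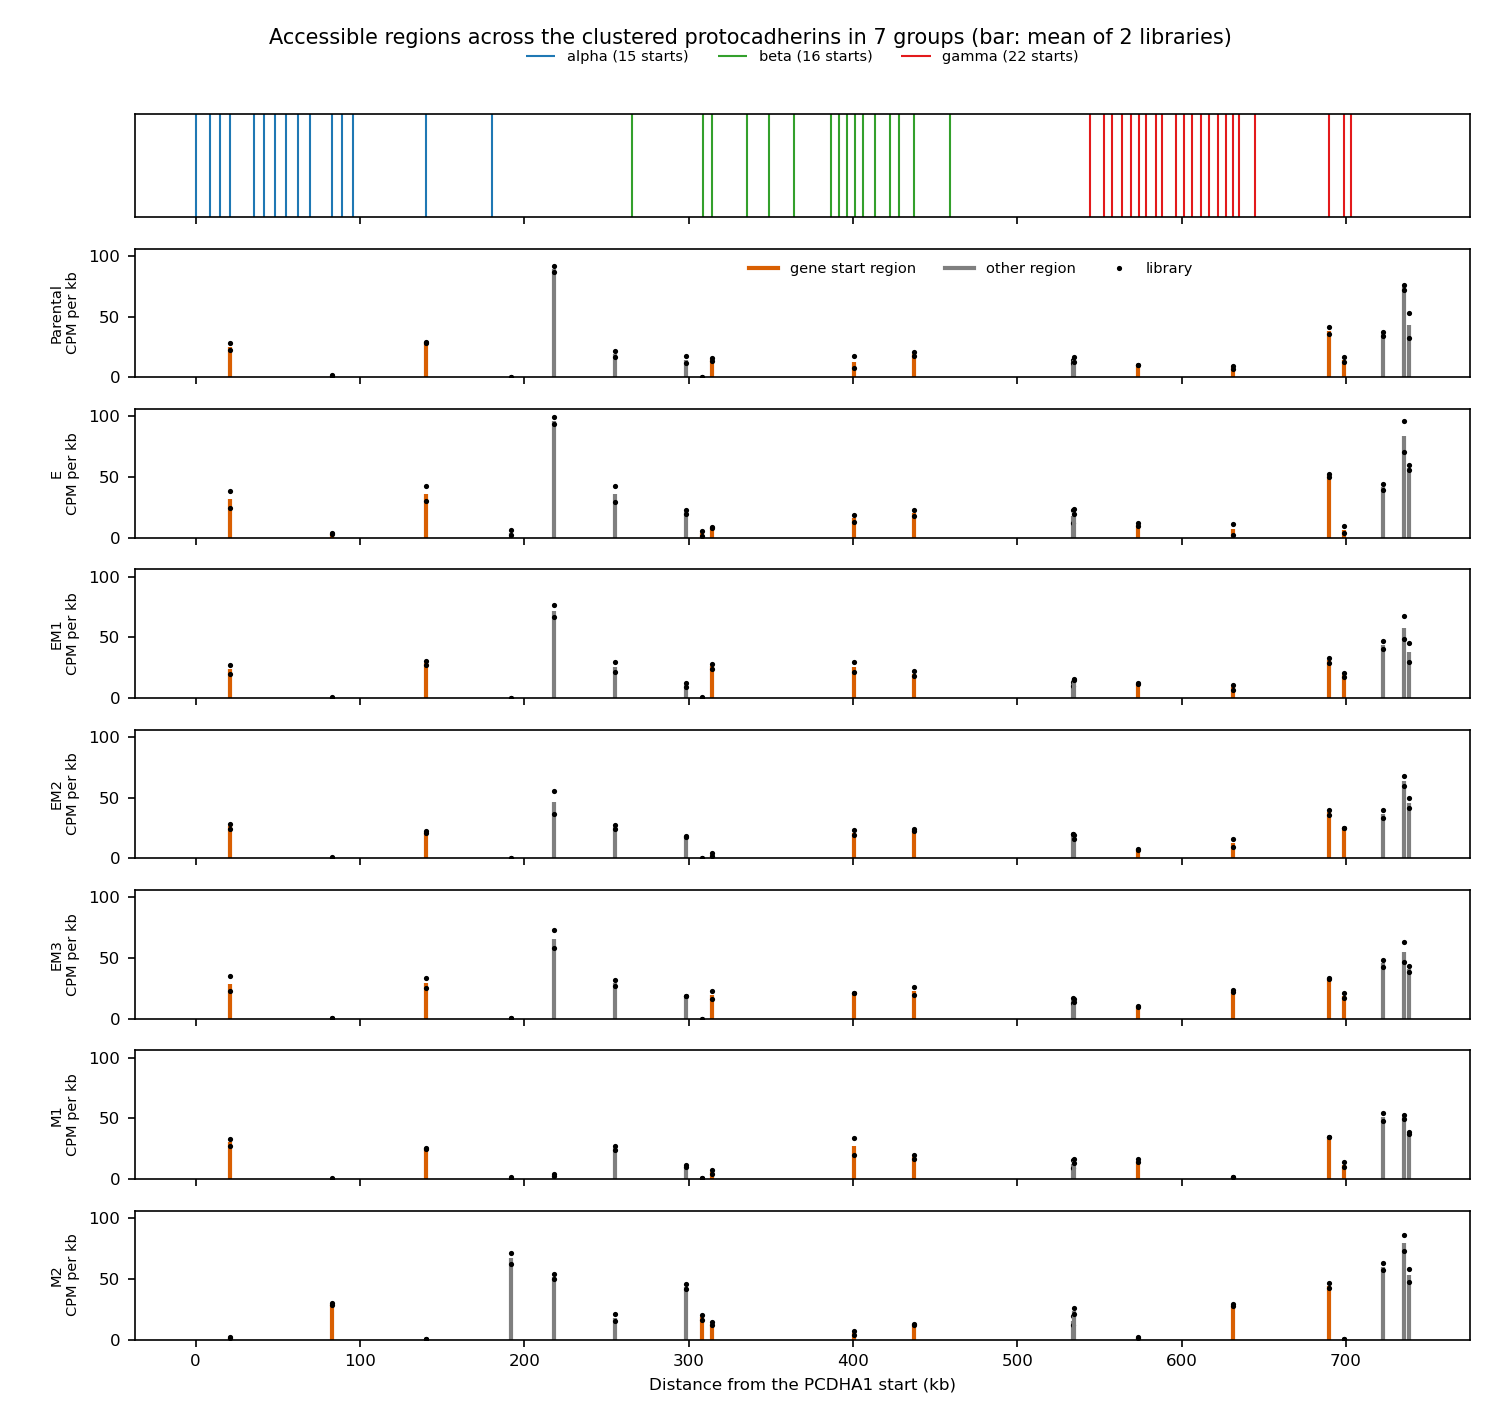
Mean accessibility per kb of region (CPM per kb, bars; the 2 libraries as points) against distance from the PCDHA1 start in kb, with the 53 gene starts drawn at the top. M2 lacks the bars at PCDHA4 and PCDHAC1 and has bars at PCDHA11, before the alpha constant exons and at PCDHB2 that stand lower in every other group.

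The alpha promoters differed most in M2. PCDHA4, an alpha variable gene, had 6.44 and 5.18 CPM in Parental, 5.58 and 8.90 in E, 4.54 and 6.34 in EM1, 6.47 and 5.61 in EM2, 5.27 and 8.06 in EM3, and 7.66 and 6.34 in M1. In M2 it had 0.229 and 0.458 CPM, below every other library. PCDHAC1, a C-type alpha gene, had 27.4 and 26.3 CPM in Parental and 28.3 and 39.5 in E. It had 28.8 and 25.3 in EM1, 21.4 and 19.2 in EM2, 31 and 23.3 in EM3, and 24 and 23.4 in M1. Its M2 libraries had 0.458 and 0.611 CPM, again below all others. The log2 change in M2 against Parental was -3.96 ± 0.47 (SE) at PCDHA4 (edgeR adjusted p = 1e-05) and -5.59 ± 0.30 at PCDHAC1 (edgeR adjusted p = 1.76e-08).

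PCDHA11 showed the opposite order. Its M2 libraries had 5.50 and 5.81 CPM, and the other 12 libraries had 0 to 0.728 CPM. The log2 change in M2 against Parental was 4.16 ± 0.67 (SE; edgeR adjusted p = 0.000115). The counts behind it were 124 in M2 and 7 in Parental, a ratio of 18.5 with an exact 95% interval of 8.73 to 47 that covers counting error only. The summed CPM of the 3 alpha starts was 33 ± 1.7 in Parental (SD, n = 2), with 81.4% of it at PCDHAC1, and 6.53 ± 0.49 in M2, with 86.5% at PCDHA11.

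**Figure D2:**
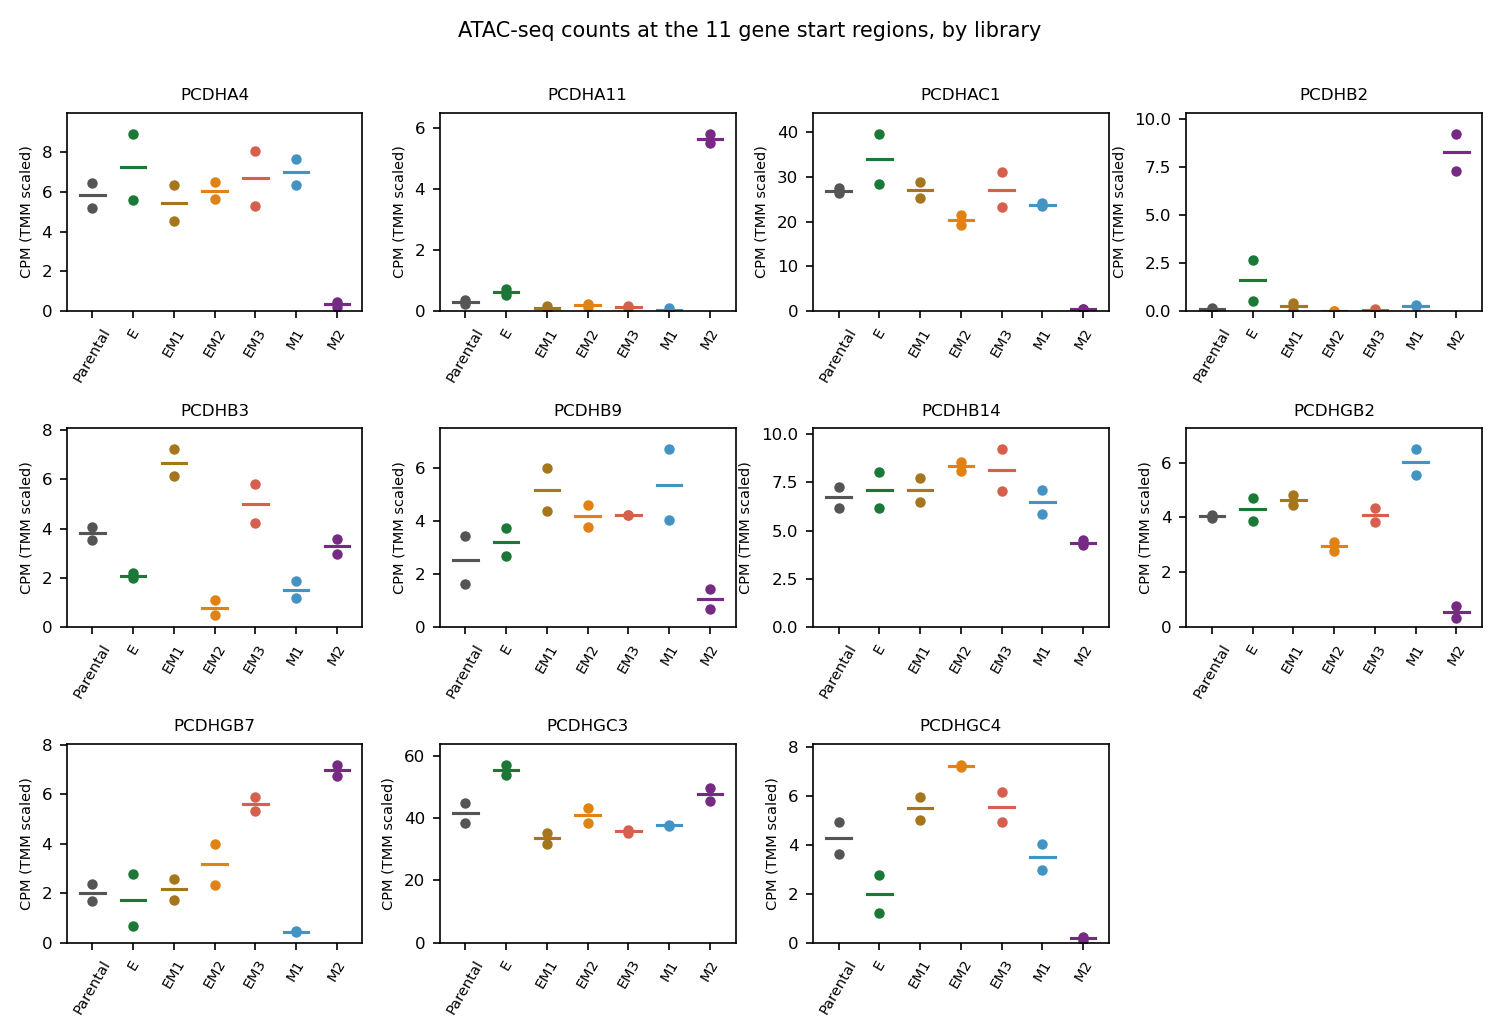
Accessibility in CPM of the 11 start regions by group, with 1 point per library and a line at the mean. PCDHA4, PCDHAC1, PCDHGB2 and PCDHGC4 stand lowest in M2, PCDHA11 and PCDHB2 stand highest in M2, and PCDHGC3 is high in all 7 groups.

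Of the 4 beta starts, PCDHB2 was open only in M2. It had 7.33 and 9.24 CPM there, 2.67 and 0.549 CPM in E, 0.181 and 0.0848 in Parental, and 0 to 0.445 CPM in the EM and M1 libraries, with no count in either EM2 library. The log2 change in M2 against Parental was 5.87 ± 0.90 (SE; edgeR adjusted p = 0.000109), from 185 counts against 3, a ratio of 64.5 with an exact 95% interval of 21.7 to 315. In E the log2 change was 3.49 ± 1.00 (edgeR adjusted p = 0.0432), and without E replicate 1 it was 1.98 (edgeR adjusted p = 0.331). That call was also lost without Parental replicate 1 (adjusted p = 0.143) or 2 (0.249).

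PCDHB3 had 3.54 and 4.07 CPM in Parental, 2.18 and 1.98 in E, 7.21 and 6.13 in EM1, 1.08 and 0.468 in EM2, 5.79 and 4.23 in EM3, 1.17 and 1.85 in M1, and 2.98 and 3.59 in M2. It was lowest in EM2 and highest in EM1, and only the falls in EM2 (log2 -2.28 ± 0.44 SE, edgeR adjusted p = 0.00638) and M1 (-1.30 ± 0.41, adjusted p = 0.0217) passed the test against Parental. The EM2 call was lost without EM2 replicate 2 (-1.81, edgeR adjusted p = 0.0568). The M1 call was lost without either Parental library or without M1 replicate 1 (edgeR adjusted p = 0.0556, 0.110 and 0.147).

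The other beta starts varied less. PCDHB9 had 3.45 and 1.61 CPM in Parental, 6.70 and 4.03 in M1 and 0.687 and 1.45 in M2; the change in M2 against Parental was -1.18 ± 0.50 on the log2 scale (SE) and did not pass (edgeR adjusted p = 0.0529), though it did without Parental replicate 2 (-1.65, adjusted p = 0.0184) or M2 replicate 2 (-1.87, adjusted p = 0.0344). PCDHB14 had 4.24 and 4.51 CPM in M2 and 5.88 to 9.21 CPM in every other library, and its change in M2 against Parental, -0.62 ± 0.27, did not pass either (edgeR adjusted p = 0.0606). Both changes passed with scaling by library totals (edgeR adjusted p = 0.0350 for PCDHB9 and 0.0304 for PCDHB14) and with the median change of the surrounding 5 Mb on each side removed (-1.71 and -1.15, edgeR adjusted p = 0.00885 and 0.00227). PCDHB14 held the largest share of the summed beta start signal in every group except M2, where PCDHB2 held 48.7%.

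Among the gamma starts, PCDHGC3, a C-type gene, was the most accessible in all 7 groups and held 70.1 to 87.4% of the summed gamma start signal. Its libraries ranged from 31.6 CPM in EM1 to 57 CPM in E, and Parental (44.8 and 38.5) and M2 (45.6 and 49.8) did not overlap but did not pass the test (log2 0.20 ± 0.14 SE, edgeR adjusted p = 0.215). With the flank median removed the direction turned and the change passed (-0.34, edgeR adjusted p = 0.0431). PCDHGC4, also C-type, had 3.63 and 4.92 CPM in Parental, 1.21 and 2.75 in E, 5.96 and 5.02 in EM1, 7.25 and 7.17 in EM2, 4.92 and 6.15 in EM3, 2.98 and 4.03 in M1, and 0.115 and 0.229 in M2. It fell in M2 by 4.48 on the log2 scale (SE 0.56, edgeR adjusted p = 1.43e-05). In E the change of -1.10 ± 0.41 did not pass (edgeR adjusted p = 0.10). It was -0.64 without E replicate 1 (edgeR adjusted p = 0.419), -1.74 without E replicate 2 (0.0312) and -1.50 with the flank median removed (0.0181). No region of the table lay at the other C-type starts, PCDHAC2 and PCDHGC5.

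PCDHGB2 and PCDHGB7, variable gamma genes, went opposite ways in M2. PCDHGB2 had 4.08 and 3.99 CPM in Parental, 2.77 to 6.47 CPM in the E, EM and M1 libraries, and 0.344 and 0.764 CPM in M2, a log2 change of -2.77 ± 0.41 against Parental (SE; edgeR adjusted p = 5.42e-05). PCDHGB7 had 2.36 and 1.70 CPM in Parental, 2.79 and 0.659 in E, 2.58 and 1.74 in EM1, 4.01 and 2.34 in EM2, 5.91 and 5.34 in EM3, 0.425 and 0.462 in M1, and 6.76 and 7.18 in M2. Its libraries were lowest in M1 and highest in M2. Against Parental it fell in M1 by 2.15 on the log2 scale (SE 0.63, edgeR adjusted p = 0.0142) and rose in M2 by 1.78 (SE 0.50, edgeR adjusted p = 0.00692). The M1 fall was lost without Parental replicate 1 (edgeR adjusted p = 0.0805) or either M1 library (0.0686 and 0.0794), and the M2 rise without Parental replicate 2 (0.0712).

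Away from the starts, the regions that changed most lay before and within the span of the alpha constant exons. Overlap with an exon itself was not determined. The region at chr5:140978216-140978600 ends 349 bases before the alpha constant exons begin at position 140978949. It had 23.9 and 27.6 CPM in M2, 2.55 and 0.769 in E, and 0 to 0.532 CPM in the other 10 libraries. Against Parental the M2 change was 7.51 ± 0.86 on the log2 scale (SE; edgeR adjusted p = 6.98e-06), from 570 counts against 3. In E it was 3.54 ± 1.00 (edgeR adjusted p = 0.0385), and without E replicate 1 it was 2.46 (edgeR adjusted p = 0.264). Leaving out Parental replicate 1 or 2 also ended the call (adjusted p = 0.184 and 0.180).

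The region among the alpha constant exons, chr5:141004088-141004690, behaved differently. It had 52.6 and 55.4 CPM in Parental, 56.4 and 60.1 in E, 46.2 and 40.5 in EM1, 22.4 and 33.4 in EM2, 35.2 and 43.9 in EM3, 1.70 and 2.51 in M1, and 30.1 and 32.5 in M2. It was the most accessible member per kb in Parental (89.6 CPM per kb, the 97.5th percentile of all regions) and not open in M1. The log2 change was -4.63 ± 0.25 in M1 (SE; edgeR adjusted p = 8.92e-08), -0.95 ± 0.20 in EM2 (adjusted p = 0.00879) and -0.79 ± 0.20 in M2 (adjusted p = 0.00309). The EM2 call was lost without either Parental library or without EM2 replicate 1 (edgeR adjusted p = 0.0510, 0.0562 and 0.0988), while the M1 call held under every alternative run.

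**Figure D3:**
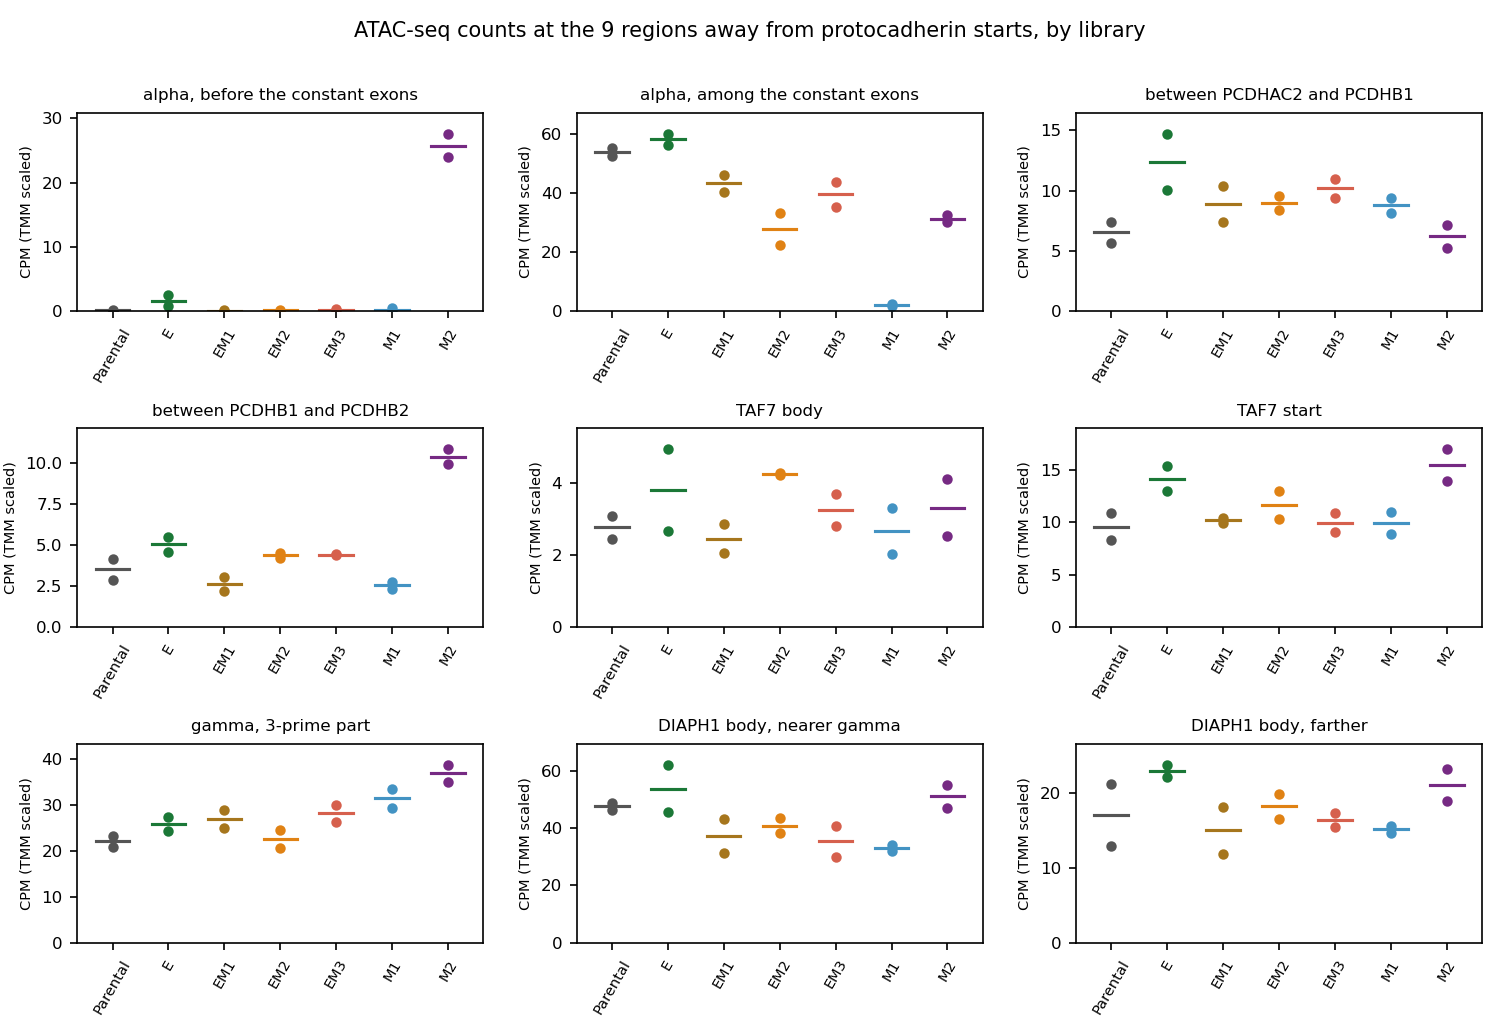
Accessibility in CPM of the 9 regions away from cluster gene starts by group, with 1 point per library and a line at the mean. The region before the alpha constant exons is high only in M2, and the region among them is near 0 only in M1.

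The 2 regions between genes were open in all 7 groups. The one between PCDHAC2 and PCDHB1 (chr5:141041107-141041450) had 5.27 to 14.7 CPM over the 14 libraries, and no comparison with Parental was called by the test without a replicate block. The one between PCDHB1 and PCDHB2 (chr5:141084485-141084723) had 9.96 and 10.8 CPM in M2 and 2.23 to 5.49 CPM in the others, and rose in M2 by 1.56 on the log2 scale (SE 0.30, edgeR adjusted p = 0.000508). The region in the 3-prime part of the gamma cluster (chr5:141508953-141509567) had 20.9 and 23.2 CPM in Parental, 29.3 and 33.6 in M1 and 35.2 and 38.7 in M2. Its rises of 0.51 ± 0.17 in M1 (SE; edgeR adjusted p = 0.0239) and 0.74 ± 0.17 in M2 (adjusted p = 0.00147) were both lost when the median change of the surrounding 5 Mb on each side was removed. The M1 rise was also lost without Parental replicate 1 or 2 or M1 replicate 2 (edgeR adjusted p = 0.145, 0.0501 and 0.147). Accessibility alone does not tell an enhancer from another kind of open region.

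In the neighbouring genes, the DIAPH1 region nearer the gamma cluster (chr5:141521166-141521808) was among the 2 most accessible members per kb in every group, with 29.9 to 62 CPM. The TAF7 start region had 8.34 and 10.9 CPM in Parental and 14 and 17 in M2, a rise of 0.69 ± 0.24 on the log2 scale (SE; edgeR adjusted p = 0.0218) that was lost when the flank median was removed (edgeR adjusted p = 0.582), without Parental replicate 1 (0.163) and without M2 replicate 2 (0.138). The other DIAPH1 region and the TAF7 body region were called in no comparison.

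Counted over the 20 members, 2 were called in E against Parental (11.6% of all regions were called there, 5.27% higher and 6.31% lower), both higher and both lost without E replicate 1 or either Parental library. None was called in EM1 by edgeR (0.628% of all regions, 0.341% higher and 0.287% lower; 2 at an unadjusted p under 0.05, none by DESeq2) and none in EM3 (3.11% of all regions, 1.85% higher and 1.26% lower; 3 at an unadjusted p under 0.05, none by DESeq2). In EM3, PCDHGB7 stood 1.47 ± 0.50 higher on the log2 scale (SE; edgeR adjusted p = 0.144), and it was called with only the 4 libraries compared (adjusted p = 0.0237) and without E replicate 1 (0.0373). In EM2, 2 were called, both lower (9.19% of all regions, 3.02% higher and 6.17% lower), and leaving out any 1 library of EM2 or Parental left 1. In M1, 1 was called higher and 3 lower (42.4% of all regions, 19% higher and 23.4% lower), and leaving out any 1 of the Parental or M1 libraries left 2. In M2, 7 were called higher and 5 lower (67% of all regions, 32.1% higher and 34.9% lower), so the share of members called was no higher than the background, and the median log2 change was 0.15 over the members and -0.01 over all regions. Clones were all compared with the same Parental libraries.

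**Figure D4:**
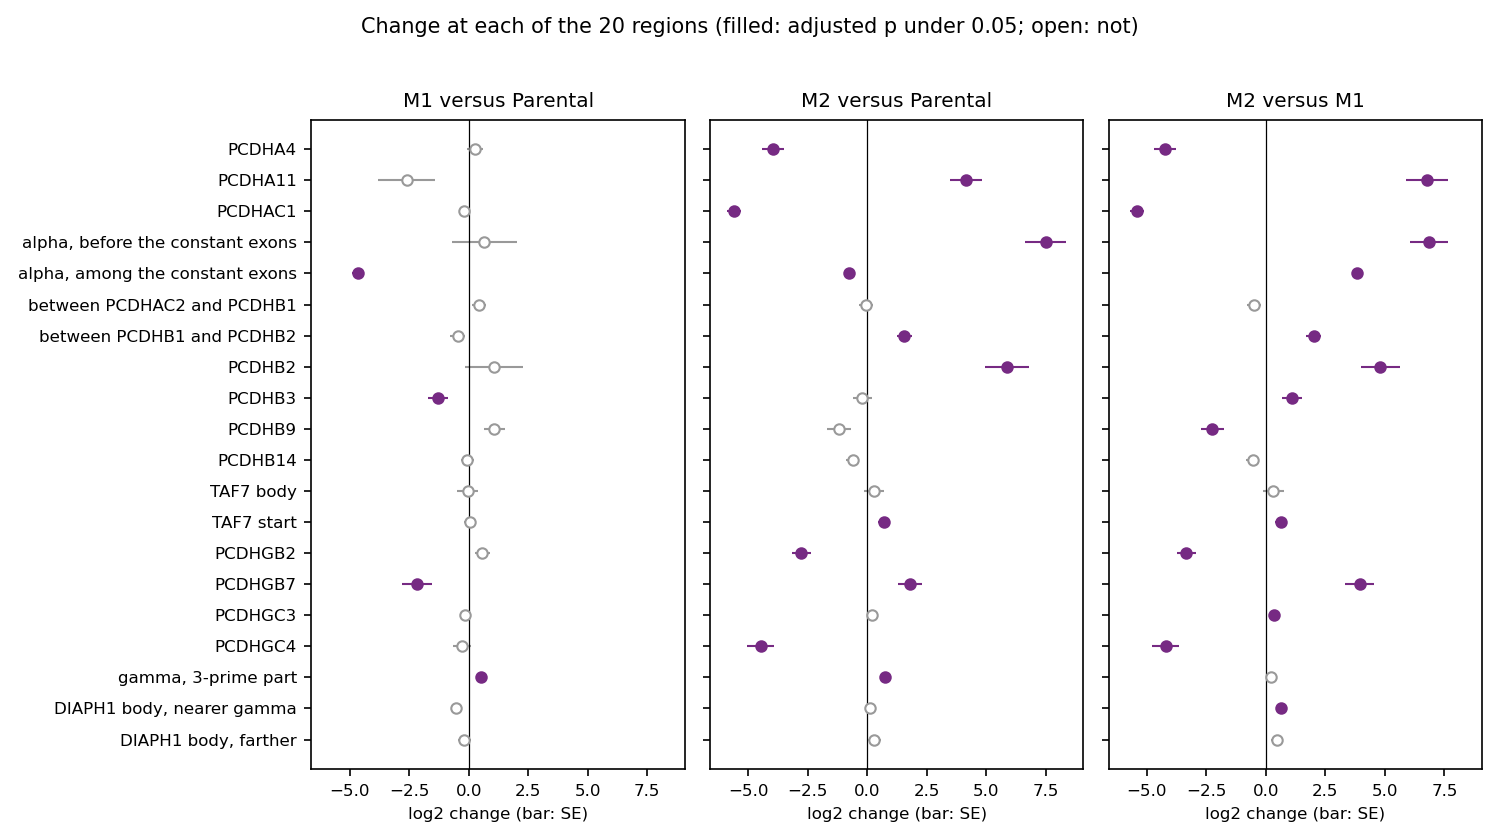
Log2 change with its SE at each of the 20 regions in M1 against Parental, M2 against Parental and M2 against M1; filled points have an edgeR adjusted p under 0.05. The fall of the region among the alpha constant exons is the largest in M1, and M2 has large changes in both directions.

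The direct comparison of the M clones called 15 of the 20 members, 10 higher and 5 lower in M2 (56.3% of all regions, 27.2% higher and 29.1% lower). Higher in M2 were the region before the alpha constant exons (log2 6.84 ± 0.81 SE), PCDHA11 (6.76 ± 0.88), PCDHB2 (4.80 ± 0.81), PCDHGB7 (3.93 ± 0.60) and the region among the alpha constant exons (3.85 ± 0.25). Lower in M2 were PCDHAC1 (-5.41 ± 0.31), PCDHA4 (-4.23 ± 0.47), PCDHGC4 (-4.20 ± 0.56), PCDHGB2 (-3.35 ± 0.40) and PCDHB9 (-2.25 ± 0.49). The largest edgeR adjusted p among these 10 was 0.00161. The region between PCDHB1 and PCDHB2 was also higher (2.01 ± 0.31). The smaller rises at PCDHB3, the TAF7 start, PCDHGC3 and DIAPH1 were each lost under some alternatives.

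The surrounding chromosome also differed in its median. The median log2 change of the 317 regions within 5 Mb on either side of the clusters, members left out, was 0.53 in M2, 0.38 in E, 0.18 in M1 and between -0.00 and 0.11 in the EM clones against Parental. The lower and upper quartiles were -0.38 and 1.23 in M2, -0.33 and 0.66 in M1, and 0.02 and 0.63 in E. They were -0.15 and 0.30 in EM1, -0.16 and 0.32 in EM2, and -0.14 and 0.35 in EM3. Outside E the quartiles thus had opposite signs, and the shift of the median was not tested. Copy number and accessibility cannot be told apart in these counts.

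Genes outside the clusters were read at the most accessible region within 1 kb of either end of the gene. A reading therefore need not lie at the gene start. Of 11 delta protocadherins and relatives outside the clusters, 8 had such a region. In M1 2 rose and none fell (42.4% of all regions were called). In M2 1 rose and 4 fell (67% of all regions). None was called in E or the EM clones (0.628 to 11.6% of all regions). PCDH10 and PCDH17 had 19.5 ± 1.5 and 10.8 ± 3.6 CPM in Parental (SD, n = 2) and no count in either M2 library, at least 142-fold and 79.4-fold lower against a floor of 3 counts over the M2 group. PCDH7 rose in M2 by 1.41 on the log2 scale (SE 0.22, edgeR adjusted p = 8.32e-05). Of 26 genes for chromatin factors linked to these clusters (CTCF, cohesin and its loaders, SMCHD1, REST, silencing and DNA methylation enzymes), 3 rose and 2 fell in M1, 13 rose and 3 fell in M2, and none was called in E or the EM clones, against the same background shares. TET3, an enzyme that oxidises methylated cytosine, had 63.3 ± 4.1 CPM in Parental, 7.57 ± 0.32 in M1 and 0.821 ± 0.027 in M2. The CTCF region did not pass in M2 (log2 0.19 ± 0.12 SE, edgeR adjusted p = 0.198).

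Markers of other cell states and types differed between the groups too. All 8 epithelial markers had a region, with KRT8 and KRT18 sharing 1, and the summed CPM of these 7 regions was 282 to 291 in Parental, 45.8 to 48.4 in M1 and 47.9 to 48.6 in M2. In M1, 6 of the 8 markers fell and none rose, against 23.4% of all regions lower and 19% higher. The shares of all regions in M2 were 34.9% lower and 32.1% higher. In M2, 6 fell, among them CDH1 (39.9 ± 11.7 CPM in Parental and 0.496 ± 0.054 in M2, SD, n = 2), while the region shared by KRT8 and KRT18 rose from 27.3 ± 9.6 to 39.9 ± 0.8 CPM and held most of the M2 sum. In EM2, 4 of the 8 fell (6.17% of all regions were lower and 3.02% higher), and the sum was 197.9 to 199.6 CPM. Over 5 of 7 mesenchymal markers the sum was 69.6 to 76.1 CPM in Parental, 103 to 135 in EM2, 135 to 140 in M1 and 171 to 188 in M2, and VIM rose in EM2, M1 and M2. Of these 5, 1 was called in EM2, 3 in M1 and 3 in M2, all higher. Over 4 of 7 neuronal markers the sum was 59.1 to 69.7 CPM in Parental, 75.7 to 84.6 in EM2, 99.5 to 101 in M1 and 92 to 95.4 in M2. SNAP25 was the only 1 of the 4 called in EM2 and in M1, where it rose. In M2 it had 7.66 ± 0.35 CPM against 39.1 ± 4.0 in M1 (SD), a log2 change of -2.35 ± 0.30 (SE, edgeR adjusted p = 3.15e-05). SYT1 and SYP were the 2 called in M2 against Parental, both higher. Over 2 of 5 blood markers the sum was 69.6 to 77.3 CPM in Parental, 40.7 to 49.3 in E, 55.9 to 64.5 in M1 and 37 to 41.9 in M2. CD3E fell in E and M2 and the other blood marker was not called there, with 6.31% of all regions lower in E. None of 4 endothelial markers had a region. The part of these differences in the protocadherin results was not tested.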

How the data were processed

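ATAC-seq counts were analysed in 14 libraries, 2 for each of 7 groups. The deposited table gives unnormalised read counts for 65774 regions, and no source used here says how the authors merged them. The submitters' processing notes name the build hg38 and these tools, with no role for any: featureCounts, MACS2 2.1.1, Picard, deepTools, Bowtie2 2.2.6, cutadapt 1.9.1, bcl2fastq 2.20.0.422. The deposited peak lists were used only for their intervals and the peak summit offset, another quantity in bases that the authors' files give in column 10; their names disagree with the clones they are attached to, so they were not assigned to clones.

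Counts were tested with edgeR 4.0.16 (limma 3.58.1, R 4.3.3): TMM scaling, filterByExpr with a minimum count of 10, 1 mean per group with all 14 libraries in the fit, two-sided quasi-likelihood F tests and Benjamini-Hochberg adjustment over 65771 regions, called at an adjusted p under 0.05. The SE is the log2 change divided by the square root of F. DESeq2 1.42.0 was an alternative. The prior count for log2 values was 2. Intervals of ratios are exact conditional binomial, at 95%. Library columns were matched by name to the labels.

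The main test did not take replicate numbers as pairs. Over 21 pairs of groups the correlation of same-numbered deviations was 0.03 to 0.64 (median 0.30), over 0.1 in 20. Same-numbered libraries thus tended to deviate together, and the main test left this in its spread. Results with a replicate block are given among the alternatives. On counts simulated for M2 against Parental over 65770 regions, 16 of 100 regions changed 2-fold and 93 of 100 changed 4-fold were recovered, with 6 false calls among 115. The simulation changed only these regions and gave every region the same spread, whereas 67% of all regions were called in M2 in the data. Its recovery and false calls therefore need not hold for the tests reported here.

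The regions named were, in each comparison, up to 4 called rises and 4 called falls whose libraries did not overlap, the 2 most accessible members per kb in each group, the C-type starts, and the 6 regions away from starts with the smallest p for any difference; other members are given beside them, and PCDHB9 and PCDHB14 were chosen for completeness. The gene lists were delta protocadherins and relatives, cluster regulators, and epithelial, mesenchymal, neuronal, blood and endothelial markers. The members, these lists and the alternatives were chosen with earlier results of these data known. Gene starts and sequences are from RefSeq, GRCh38.p14; 47 of 53 cluster genes matched.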

Additional observations from a re-analysis of the deposited data

Results flagged for a closer look

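The start of PCDHGB7 is singled out because the M clones moved in opposite directions from the same Parental libraries, with a log2 change of -2.15 in M1 and 1.78 in M2. M2 stood above M1 by 3.93 on the log2 scale (SE 0.60, edgeR adjusted p = 0.000126), with both M2 libraries above both M1 libraries. A call in this direct comparison was part of the rule that singled the start out, so it is no separate support. The M1 fall and the M2 rise against Parental each lost their call when certain single libraries were left out, as given above.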

How the results depend on the processing

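Of the 35 called member values, 21 kept their direction and call under every alternative that gave a value, and 14 lost the call in some; of 105 values not called, 12 gained a call in some. The alternatives were scaling by library totals or DESeq2 size factors, the DESeq2 test, no filter on low counts and only the 4 libraries compared. Removal of the flank median, the replicate block and leaving out each library were the others. A further alternative, a log2 change of at least 1, was applied only to the counts of called members below, and not to the member values. The 2 members called in E had no value with only the 4 libraries compared, because the low-count filter dropped them there. In E against Parental, 2 members were called, 0 with only the 4 libraries compared, 4 with the flank median removed and 0 to 3 with 1 library left out. In EM2 the count was 2, 1 when a log2 change of at least 1 was asked for, and 1 to 2 with 1 library left out. In EM3 it was 0, 1 with only the 4 libraries compared and 0 to 1 with 1 library left out. In M1 it was 4, and 2 to 5 with 1 library left out. With the replicate block, 5 members were called in E and 1 in EM3; the block moved no other count by over 1.5 times. The members it added were, in E, the region between PCDHAC2 and PCDHB1 (log2 0.90, edgeR adjusted p = 0.0277), PCDHGC3 (0.41, 0.0319) and PCDHGC4 (-1.11, 0.0473), PCDHGB7 in EM3 (1.48, 0.0460), the DIAPH1 region nearer the gamma cluster in M1 (-0.53, 0.00484) and PCDHB14 in M2 (-0.61, 0.0480). The M2 count was 9 to 14 and the M2 against M1 count 11 to 15 over all alternatives. PCDHGC3 in M2 against Parental was 0.20 and turned to -0.34 with the flank median removed (edgeR adjusted p = 0.0431). Removing the flank median also ended the M2 calls at the gamma 3-prime region and the TAF7 start. The cause of these changes was not tested. Scaling by library totals moved the median of all regions by -0.12 in M2 against Parental and -0.14 in M2 against M1. Open counts were 10 to 17 in Parental, 11 to 18 in E and 13 to 15 in M2 when the limit was 1 or 4 CPM, a single library was read or library totals were used. Depth limits the near-empty regions, where 1 count is 0.0579 to 0.121 CPM.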
